A study of Caenorhabditis elegans with 40 samples.

Results

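The 7 transcription factor genes *nhr-23*, *nhr-25*, *nhr-85*, *grh-1*, *blmp-1*, *myrf-1* and *bed-3*, which act in the moulting cycle of *Caenorhabditis elegans*, were taken by symbol from the 19934 genes measured, and all 7 passed the filter on low counts in every comparison. Whole L3 larvae were sequenced after subunits of cohesin, condensin or the X chromosome dosage compensation machinery had been cut or degraded, and the 40 samples fell into 12 groups in 4 labelled batches. All groups carried the transgene ubsSi20, in which the heat-shock promoter of *hsp-16.2* drives the TEV protease. Synchronised L1 larvae were kept for 3 h at 22 °C, shifted to 34 °C for 30 min and collected 19 h later. RNA came from the entire body, so that fewer cells of a type and less RNA per cell cannot be told apart.

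Batch 1 held 4 samples each of the TEV control, which carried no cleavable subunit, of DPY-26 cleavage, *dpy-26(ubs4[FLAG-TEVcs])*, of KLE-2 cleavage, *kle-2(ubs14[FLAG-TEVcs])*, and of SCC-1 cleavage, *scc-1(ubs19[FLAG-TEVcs])*. Batch 2 held 3 samples each of the TEV control, of COH-1 cleavage, *coh-1(ubs26[FLAG-TEVcs])*, and of a strain in which both cohesin kleisins, SCC-1 and COH-1, were cleavable (the double cleavage). Batch 3 held 3 samples each of 3 groups on plates with 1 mM auxin. These were the TEV strain, a strain with TEV and the auxin receptor TIR1 (xeSi376, driven by the *eft-3* promoter), and a strain with TEV, TIR1, cleavable DPY-26 and an auxin degron on SDC-3, *sdc-3(ubs20[N-term AID])*. Batch 4 held 3 samples of the TEV, TIR1 and SDC-3 degron strain with 1 mM auxin and 3 of the same strain on ethanol plates without auxin. That comparison is called SDC-3 degradation below, but auxin itself, auxin with TIR1 and loss of SDC-3 cannot be told apart in it. DPY-26, KLE-2, SCC-1 and COH-1 are kleisins, the subunits that close the ring of an SMC complex, and SDC-3 helps to load the dosage compensation complex on X. The study describes replicates of COH-1 cleavage and its control as biological, and for the other groups the labels give no separate cultures, so that there p-values measure the spread between these samples, which may be technical.

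A nematode sheds its cuticle at the end of each larval stage, and during every stage a large set of epidermal genes rises and falls in a fixed order. Several of the factors that drive this rhythm cycle themselves, and each is needed for normal moulting or for its timing. Since such genes change within hours, the spread between replicates was set beside every difference to the control of the same batch. A group that as a whole was earlier or later in the cycle at collection need not spread more. Such a shift cannot be told apart here from a change in level.

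Total counts per sample were 20460404 to 88427247 with a median of 38087560, and the lowest count of any of the 7 genes in a sample was 171 reads, for *bed-3*. Later-stage markers, including adult collagen and yolk protein genes, summed to at most 12.3 CPM (reads of a gene relative to all reads of its library) in a sample, and 8 of these 9 genes were at 0 in at least 1 sample. Markers of epidermis (7 of 8 matched by symbol), intestine, body wall muscle, neurons and germline were above 0 in every sample. The 6 libraries that are replicate 1 of batches 2 and 3 stood apart in the median ratio of TPM to CPM over genes, at 0.824 to 0.973 against 0.432 to 0.679 in the other 34. The results of those batches are therefore also given from replicates 2 and 3 alone, an alternative added after seeing the data.

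The genes lie on 4 chromosomes of the WBcel235 assembly. On chromosome I were *nhr-23* (7214745 to 7221299, plus strand), *nhr-85* (13055201 to 13062122, minus strand), *grh-1* (1258201 to 1268155, minus strand) and *blmp-1* (10409302 to 10414773, plus strand). The gene *myrf-1* is on chromosome II (10496987 to 10502541, minus strand), *bed-3* on IV (9916524 to 9921967, plus strand) and *nhr-25* on X (13008493 to 13013964, plus strand). On the opposite strand *nhr-85* overlaps *npr-14*, *bed-3* overlaps *dur-1* and 2 non-coding genes, and *nhr-25* overlaps 3 non-coding genes. The kit preserved strand, but whether the counting used it is not given in the sources used here, so their values are uncertain to that extent.

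Per transcript length, *myrf-1* was the most abundant by its median over the 40 samples, at 60.8 TPM with a range of 19.7 to 134. It was followed by *grh-1* at 30.4 TPM, *nhr-23* at 27.6, *blmp-1* at 27.6, *bed-3* at 22.1, *nhr-85* at 17.1 and *nhr-25* at 11.3. The ranges of any neighbours in that order overlapped, and the order was not the same in every group. By group means *bed-3* was the most abundant in the TEV control of batch 1 (45.6 TPM, against 33.5 for *myrf-1*) and with DPY-26 cleavage (46.7 against 34.4), and *myrf-1* in the other 10 groups. The genes differed far more in how much they varied. The highest sample was 22.7-fold above the lowest for *bed-3*, 8.28-fold for *grh-1*, 7.41-fold for *nhr-23*, 4.52-fold for *myrf-1*, 4.13-fold for *nhr-25*, 2.97-fold for *nhr-85* and 2.22-fold for *blmp-1*, all in CPM.

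Replicates of a group spread widely for *bed-3*, with a within-group SD of 0.57 on the log2 CPM scale, larger than that of 91.6% of the 9683 genes with a mean of at least 5 CPM. The SD was 0.41 for *nhr-23* (84.3% of genes below), 0.39 for *grh-1* (82.8%) and 0.32 for *myrf-1* (75.1%). It was close to the median of all genes, 0.22, for *nhr-85* at 0.25 and *blmp-1* at 0.22, and below it for *nhr-25* at 0.19. The SD of the group means within a batch was 2.65 times the replicate SD for *nhr-25*, 2.24 times for *bed-3* and 1.94 times for *grh-1*, and 1.16 to 1.25 times for *nhr-23*, *myrf-1*, *blmp-1* and *nhr-85*. Means of 3 or 4 samples vary less than single samples, so a ratio near 1 does not mean that groups and replicates differed alike.

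**Figure D1:**
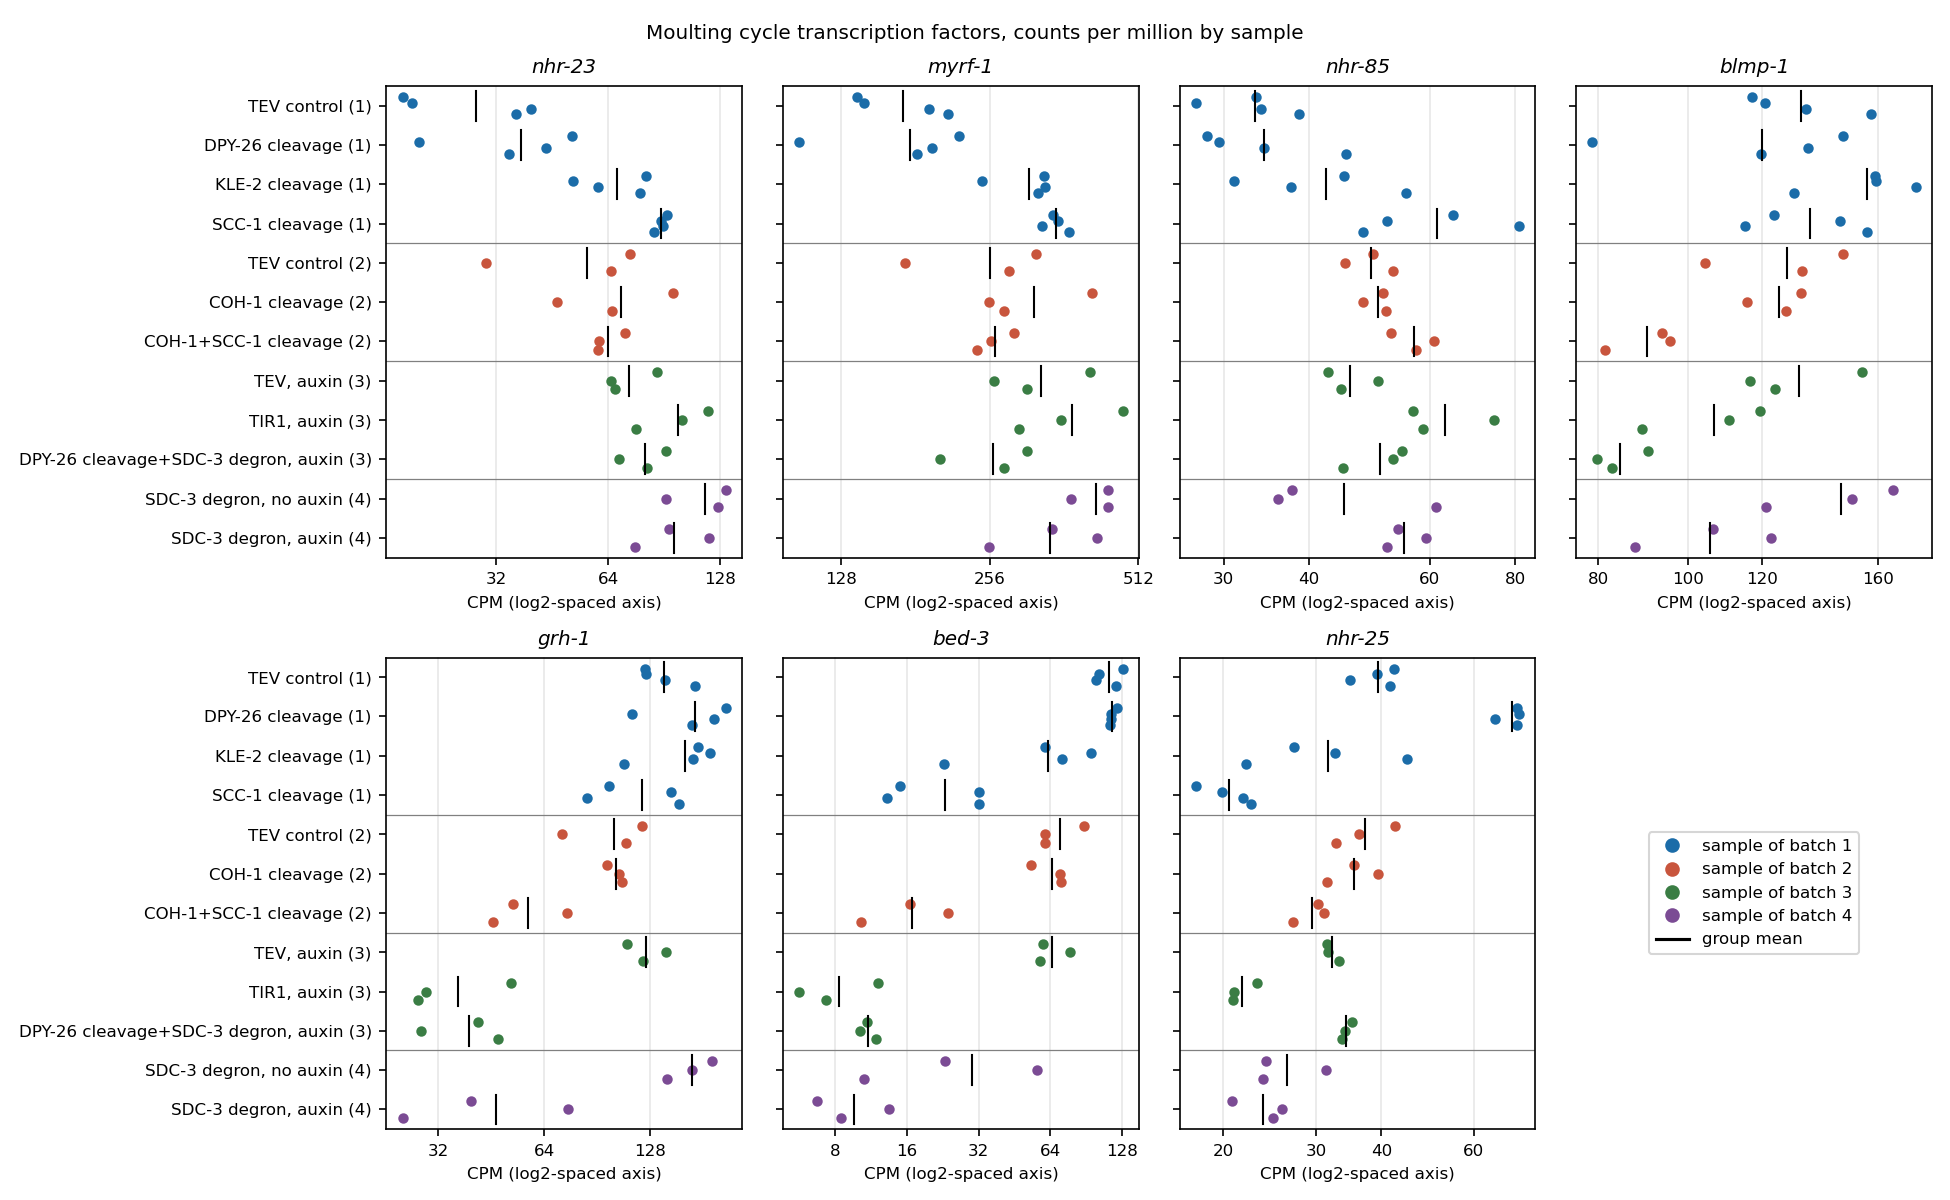
CPM (log2-spaced horizontal axis) of the 7 genes in each of the 40 samples, by group, with the batch in brackets and in colour; points are samples and black lines are group means. The 4 samples of DPY-26 cleavage sit at 65.7 to 73.2 CPM for nhr-25, above the TEV control, and bed-3 spans 5.65 to 128 CPM over all samples.

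Against the control of the same batch, SCC-1 cleavage changed the largest number of the 7 genes by edgeR, and cleavage of KLE-2 or COH-1 and degradation of SDC-3 gave no call. Calls are genes with a Benjamini-Hochberg adjusted p under 0.05 in edgeR's quasi-likelihood test, adjusted over all genes tested. With SCC-1 cleavage 5 of 7 were called, 3 higher and 2 lower, where 29.0% of all genes tested were called (14.4% higher, 14.6% lower). With TIR1 and auxin against TEV and auxin 3 of 7 were called, all lower, against 14.4% of all genes (4.68% higher, 9.76% lower). With DPY-26 cleavage 1 of 7 was called, higher, against 27.5% (15.5% higher, 11.9% lower), and with the double cleavage 1 of 7, lower, against 21.3% (10.3% higher, 11% lower). With DPY-26 cleavage plus SDC-3 degradation against TIR1 it was 1 of 7, higher, against 14.7% (11.2% higher, 3.46% lower). These shares of all genes depended on single libraries more than the members' calls did. Without double cleavage replicate 1 the genes called fell from 2995 of 14049 to 478 higher and 344 lower of 13757, and without replicate 2 of DPY-26 cleavage with SDC-3 degradation from 2053 of 13992 to 842 of 13813, with the same member called in each. The counts of 1 in 7 are therefore not read as above or below the share of all genes.

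No member was called with KLE-2 cleavage (1.17% of all genes, 0.419% higher and 0.754% lower), where 3 had an unadjusted p under 0.05, as did 15.2% of all genes, and DESeq2 called 2, against 7% of all genes. None was called with SDC-3 degradation (1.27% of all genes, 0.814% higher and 0.455% lower), where again 3 had an unadjusted p under 0.05, against 22.0% of all genes, and DESeq2 called 2, against 11.7%. None was called with COH-1 cleavage (0.00719% of all genes, 1 gene), where no member had an unadjusted p under 0.05 (6.27% of all genes) and DESeq2 called none of them (0.863%). For COH-1 cleavage the study reports many more called genes with DESeq2, after genes that oscillate in development had been removed. It describes most of those changes as very small. The 3 cleavages of batch 1 share their 4 control samples and the 2 of batch 2 share theirs, so these comparisons are not independent of each other.

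Read against the spread, the difference to the control exceeded the pooled replicate SD in 34 of the 56 pairs of gene and comparison, exceeded it by more than 2 times in 18, and stayed below it in 22. The shares of all genes at these cuts were not computed, so these counts are not read as a result about the members. In 19 pairs the ranges of the compared groups did not overlap. By comparison these were 5 of 7 genes for SCC-1 cleavage (31.8% of all genes tested), 4 for TIR1 with auxin (31.9%), 3 for KLE-2 cleavage (13.1%) and 3 for the double cleavage (43.1%). They were 2 for DPY-26 cleavage with SDC-3 degradation (35.9%), 1 for DPY-26 cleavage (28.9%), 1 for SDC-3 degradation (33.3%) and 0 for COH-1 cleavage (12.1%). Two-sided exact permutation tests of single genes cannot go below a p of 0.0286 with 4 samples against 4 or 0.1 with 3 against 3, and the smallest adjusted over the 56 was 0.178.

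**Figure D2:**
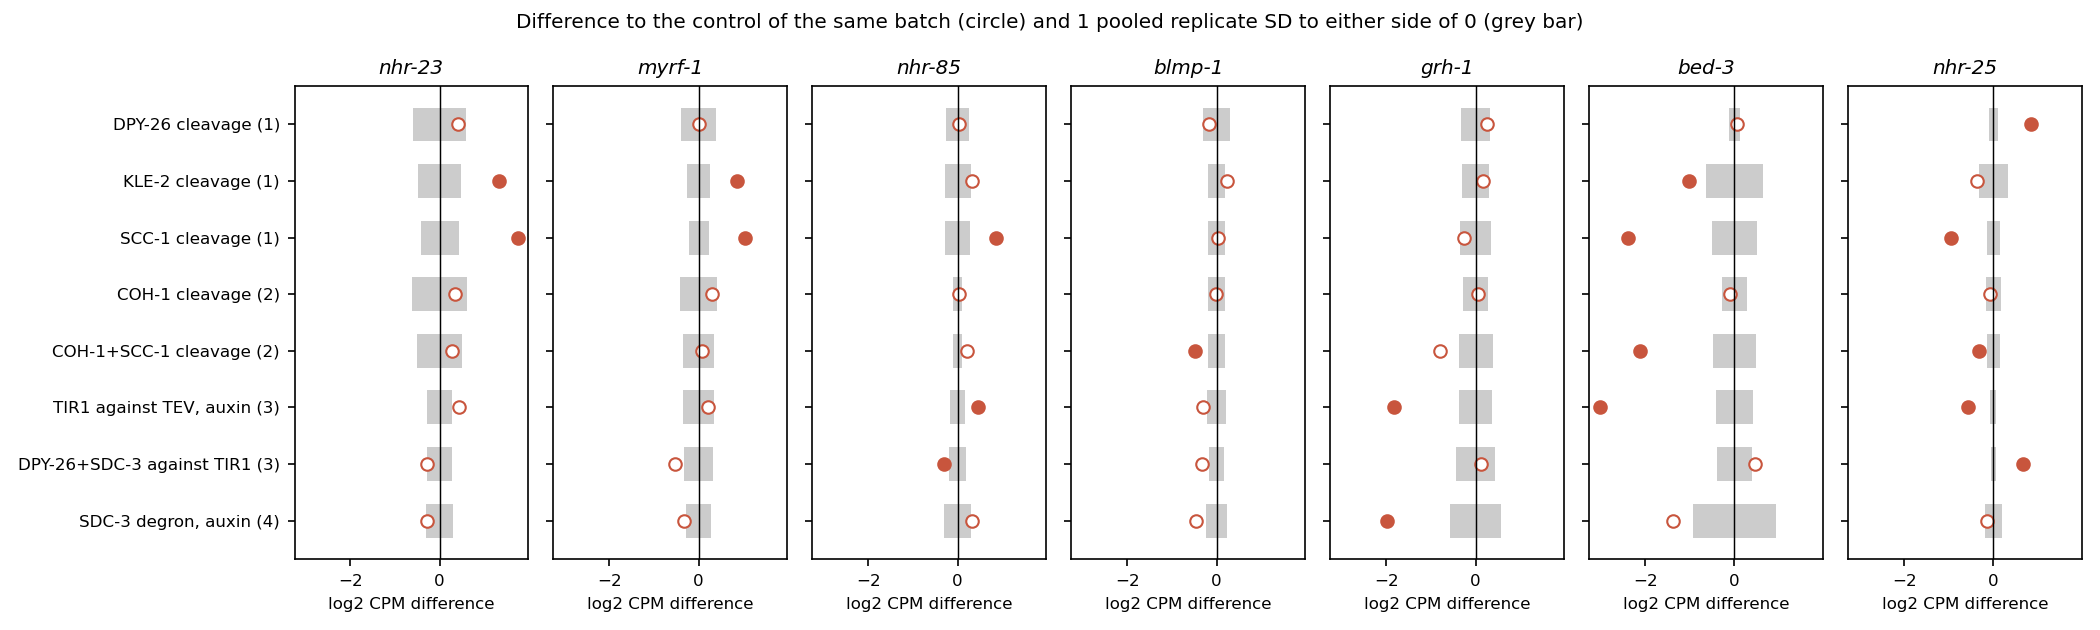
Difference of group means in log2 CPM (horizontal axis) between each group and its control, by gene and comparison, with the batch in brackets; filled circles mark groups whose ranges do not overlap, open circles those that do, and the grey bar reaches 1 pooled replicate SD to either side of 0. The differences of nhr-25 with DPY-26 cleavage and of bed-3 with SCC-1 cleavage lie far outside the bar, and all 7 with COH-1 cleavage lie inside it.

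Among the nuclear receptors, *nhr-23*, the counterpart of *Drosophila* DHR3 and a main driver of the moulting rhythm in the epidermis, rose with SCC-1 cleavage. It had 17.9, 19.0, 39.7 and 36.2 CPM in the TEV control of batch 1 and 91.9, 88.9, 89.7 and 85.1 CPM with SCC-1 cleavage. The groups did not overlap, and the SCC-1 samples were tightly grouped where the controls fell into a lower and a higher pair. The log2 fold change was 1.66 (SE 0.26, n = 4 and 4), with an edgeR adjusted p of 0.00205. With KLE-2 cleavage the samples had 80.8, 51.4, 60.1 and 77.7 CPM, again all above the controls, with a log2 fold change of 1.27 (SE 0.30) that missed the threshold in edgeR (adjusted p = 0.092) and passed it with DESeq2 (adjusted p = 0.0024) and with all groups of the batch in 1 fit (adjusted p = 0.0264), with a range over all alternatives of 0.0024 to 0.274.

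Markers of epidermis, where *nhr-23* acts, summed to 335 to 604 CPM in the control, 569 to 939.8 CPM with SCC-1 cleavage and 647 to 890.0 CPM with KLE-2 cleavage, and later-stage markers to 6.27 to 6.83 CPM, 1.64 to 3.90 CPM and 3.04 to 5.54 CPM in the same order. By edgeR 2 of 7 epidermis markers were called higher with SCC-1 cleavage (14.4% of all genes) and 0 of 7 with KLE-2 cleavage (0.419%). The median log2 fold changes of these markers were 0.20 and 0.44. The part of the markers in the differences was not tested. DPY-26 cleavage samples, at 51.1, 19.9, 43.4 and 34.6 CPM, overlapped the controls, and the *nhr-23* difference was 0.68 times the pooled SD. In batch 2 the TEV control had 73.2, 30.1 and 64.9 CPM of *nhr-23*, COH-1 cleavage 95.3, 46.5 and 65.5 CPM, and cleavage of both 70.8, 60.4 and 60.0 CPM, and all 3 groups overlapped. In batches 3 and 4 *nhr-23* was between 65.0 and 133 CPM and was not called in the fits without a replicate block.

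The membrane-anchored factor gene *myrf-1*, which is required for larval progression and moulting, followed *nhr-23* closely. It had 138, 142, 193 and 211 CPM in the TEV control of batch 1, 344, 352, 327 and 370.0 CPM with SCC-1 cleavage, and 329.9, 247, 331 and 320.0 CPM with KLE-2 cleavage. Every sample of either cleavage was above every control. The log2 fold change was 1.03 (SE 0.14, edgeR adjusted p = 0.00119) with SCC-1 cleavage. With KLE-2 cleavage it was 0.86 (SE 0.18, edgeR adjusted p = 0.0711; DESeq2 adjusted p = 0.000846; 0.0284 with all groups of the batch in 1 fit; 0.0477 without KLE-2 replicate 2; range over all alternatives 0.000846 to 0.262). The *myrf-1* log2 fold change of DPY-26 cleavage was 0.02. In batches 2 to 4 the groups overlapped in every comparison, and DPY-26 cleavage with SDC-3 degradation gave 304, 203 and 274 CPM against 476, 357 and 293 CPM with TIR1, at -0.53 (SE 0.20, edgeR adjusted p = 0.113; DESeq2 adjusted p = 0.0433; range over all alternatives 0.04 to 0.307).

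In batch 1 the TEV control itself was low in *nhr-23* and *myrf-1* compared with the same strain in the other batches. The mean of *nhr-23* was 28.2 CPM (SD 11.4, n = 4) in the TEV control of batch 1 and 56.1 CPM (SD 22.9, n = 3) in that of batch 2, and the TEV strain on auxin in batch 3 had 86.4, 65.0 and 66.8 CPM. The mean of *myrf-1* was 171 CPM (SD 36.4) in batch 1 and 256 CPM (SD 75.1) in batch 2. Levels were not tested between batches, in which all other differences of handling cannot be told apart from the batch.

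The receptor gene *nhr-85*, related to *Drosophila* E75 and known to act with *nhr-23* on the developmental microRNA gene *lin-4*, rose with SCC-1 cleavage as well. It had 33.5, 27.3, 34.0 and 38.7 CPM in the TEV control and 64.8, 51.9, 81.0 and 48.0 CPM with SCC-1 cleavage, with no overlap. The log2 fold change was 0.89 (SE 0.18), with an edgeR adjusted p of 0.00586. On auxin, *nhr-85* was at 56.7, 74.4 and 58.7 CPM with TIR1 and 42.6, 50.4 and 44.5 CPM without it, a log2 fold change of 0.50 (SE 0.15) that missed the threshold (edgeR adjusted p = 0.0589) and passed it with DESeq2 (adjusted p = 0.0319), with all groups of the batch in 1 fit (edgeR adjusted p = 0.0342) and without TIR1 replicate 1 (edgeR adjusted p = 0.0311). Over all alternatives the adjusted p of *nhr-85* was 0.0128 to 0.23. The strain with DPY-26 cleavage and SDC-3 degradation had 54.6, 53.0 and 44.9 CPM of *nhr-85*, below all 3 TIR1 samples, at -0.32 (SE 0.14, edgeR adjusted p = 0.154).

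The receptor gene *nhr-25*, the counterpart of *Drosophila* Ftz-F1, acts in epidermal development and moulting, and it was the only member on X. It had 42.2, 39.3, 34.8 and 41.6 CPM in the TEV control and 72.5, 73.2, 65.7 and 72.6 CPM with DPY-26 cleavage. All 4 cleavage samples were above all controls, and the difference was 8.24 times the pooled SD. The log2 fold change was 0.83 (SE 0.08, edgeR adjusted p = 0.000441). DPY-26 is also a subunit of the condensin that lowers expression from X in hermaphrodites, and the median log2 fold change of the 2224 X genes tested was 0.61, with 67.7% of them called higher. The value of *nhr-25* was above that of 74.3% of X genes. Earlier-stage markers summed to 270.5 to 305 CPM with DPY-26 cleavage and 169 to 189.9 CPM in the control. Of the 4 markers 2 were called higher and 1 lower, where 15.5% of all genes rose and 11.9% fell. Later-stage markers summed to 5.96 to 12.3 CPM with DPY-26 cleavage and 6.27 to 6.83 CPM in the control. Of these 1 of 5 tested was called higher and 1 lower. Which of the stage markers lie on X was not examined. The part of these markers was not tested.

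With DPY-26 cleavage and SDC-3 degradation together, *nhr-25* had 35.1, 34.0 and 33.6 CPM against 23.2, 20.96 and 20.9 CPM in the TIR1 control. The groups did not overlap, and the log2 fold change was 0.65 (SE 0.08, edgeR adjusted p = 0.00393) beside a median of 0.58 over X, above 59.9% of X genes. The *nhr-25* difference held at 0.69 in replicates 2 and 3 alone (edgeR adjusted p = 0.0112). Earlier-stage markers summed to 247 to 332 CPM in these samples and 188 to 242 CPM in the TIR1 control, without overlap and with none of the 4 called. Of the other markers the later-stage *col-19*, the epidermal *elt-3* and the intestinal *pept-1* were called higher. Which of all these markers lie on X was again not examined, and their part was not tested. The SDC-3 degron strain of batch 4 had 20.8, 25.8 and 24.8 CPM of *nhr-25* with auxin and 24.1, 31.3 and 23.8 CPM without, which overlapped. There the median over X was 0.14 and the *nhr-25* log2 fold change was -0.13 (SE 0.16, edgeR adjusted p = 0.664).

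**Figure D3:**
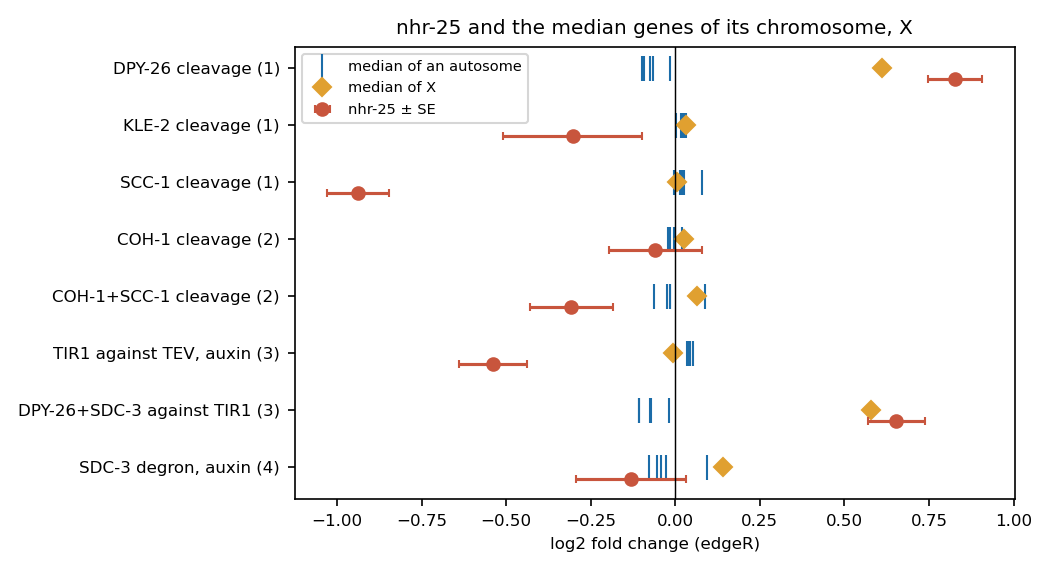
Log2 fold change of nhr-25 (red circles, bars 1 SE), the median over the tested genes of X (diamonds) and of each autosome (ticks) in the 8 comparisons, with the batch in brackets. The 2 comparisons with DPY-26 cleavage place nhr-25 at 0.83 and 0.65 near X medians of 0.61 and 0.58, whereas SCC-1 cleavage places it at -0.94 with an X median of about 0.

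In 2 other comparisons *nhr-25* fell while the X median was near 0. With SCC-1 cleavage it had 17.7, 19.9, 21.8 and 22.5 CPM, all below the controls. The log2 fold change was -0.94 (SE 0.09, edgeR adjusted p = 0.000259) with an X median of 0.00, and only 7.51% of X genes were lower. The TIR1 strain on auxin had 23.2, 20.96 and 20.9 CPM against 31.5, 31.7 and 33.2 CPM in the TEV strain on auxin, again without overlap. Here the *nhr-25* log2 fold change was -0.54 (SE 0.10, edgeR adjusted p = 0.0082) with an X median of -0.01. KLE-2 cleavage gave 27.3, 32.7, 44.8 and 22.1 CPM, which overlapped the controls. The double cleavage gave 30.4, 31.1 and 27.2 CPM of *nhr-25*, below the 42.5, 36.2 and 32.8 CPM of its control, at -0.31 (SE 0.12, edgeR adjusted p = 0.118).

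The gene *bed-3*, which encodes a BED zinc finger protein needed for moulting and vulval development, showed the largest differences of the 7. It had 128, 102, 99.1 and 120.2 CPM in the TEV control of batch 1, 122, 114, 115 and 114 CPM with DPY-26 cleavage and 15.01, 32.0, 13.2 and 32.0 CPM with SCC-1 cleavage. SCC-1 samples were all below the controls, whereas DPY-26 samples lay among them with little spread. The SCC-1 log2 fold change was -2.28 (SE 0.30, edgeR adjusted p = 0.000945). KLE-2 cleavage gave 60.9, 94.8, 71.8 and 22.97 CPM, below the controls in each sample but spread over a wide range, with a log2 fold change of -0.83 (SE 0.36, edgeR adjusted p = 0.319).

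In batch 2 *bed-3* had 88.8, 60.7 and 60.6 CPM in the TEV control, 53.2, 70.5 and 71.1 CPM with COH-1 cleavage and 16.5, 23.8 and 10.2 CPM with cleavage of both kleisins. Only the double cleavage was apart from the control, with a log2 fold change of -2.03 (SE 0.32, edgeR adjusted p = 0.00948). In replicates 2 and 3 alone the value was -1.81 with an edgeR adjusted p of 0.121, and no gene was called in that comparison of 2 against 2, where 3888 of 13884 genes had an unadjusted p under 0.05.

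On auxin *bed-3* had 59.4, 77.2 and 58.1 CPM in the TEV strain, 12.1, 5.65 and 7.30 CPM in the TIR1 strain and 10.9, 10.1 and 11.8 CPM with DPY-26 cleavage and SDC-3 degradation. Both TIR1 strains were far below the TEV strain, and replicates of the TIR1 control spanned the range of the other. TIR1 against TEV gave a log2 fold change of -2.92 (SE 0.26, edgeR adjusted p = 0.000489), and -3.37 in replicates 2 and 3 alone (edgeR adjusted p = 5.62e-05). Without TIR1 replicate 1, the highest of the 3, *bed-3* was higher with DPY-26 cleavage and SDC-3 degradation than with TIR1, by 0.74 (edgeR adjusted p = 0.0226), where all samples gave 0.37 (SE 0.25, adjusted p = 0.353) and the alternatives ranged from 0.0226 to 0.706. The SDC-3 degron strain had 6.72, 13.5 and 8.48 CPM of *bed-3* with auxin and 23.1, 55.9 and 10.6 CPM without, which overlapped, at -1.64 (SE 0.60, edgeR adjusted p = 0.172; DESeq2 adjusted p = 0.0304; edgeR adjusted p = 0.0452 without ethanol replicate 3, the lowest of them). Leaving out 1 sample moved it between -2.06, without that sample, and -0.81, without ethanol replicate 2, the highest (edgeR adjusted p = 0.305), and the largest adjusted p was 0.458.

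The Grainyhead factor gene *grh-1*, which acts in cuticle formation and in the moulting rhythm, had its 3 lowest group means in the 3 groups that carried TIR1 and were on auxin. It had 109.9, 142 and 122 CPM in the TEV strain on auxin, 51.5, 29.6 and 28.0 CPM with TIR1 and 41.5, 28.5 and 47.3 CPM with DPY-26 cleavage and SDC-3 degradation. The TEV samples were all above the others. TIR1 against TEV gave a log2 fold change of -1.75 (SE 0.23, edgeR adjusted p = 0.0017), and -2.18 in replicates 2 and 3 alone (edgeR adjusted p = 7.64e-05). With the SDC-3 degron, *grh-1* was at 39.6, 74.9 and 25.4 CPM with auxin and 192, 169 and 143 CPM without, with no overlap and a log2 fold change of -1.83 (SE 0.39) that missed the threshold in edgeR (adjusted p = 0.0664) and passed it with DESeq2 (adjusted p = 8.26e-05). It also passed without auxin replicate 2 (edgeR adjusted p = 0.0164) or ethanol replicate 3 (0.0466), and without auxin replicate 1 the adjusted p was 0.273. Epidermis markers summed to 359 to 721 CPM with auxin and 948 to 1275 CPM without in these samples, and their part was not tested.

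In batch 2 *grh-1* had 122, 71.9 and 109 CPM in the TEV control and 52.2, 74.5 and 46.0 CPM with cleavage of COH-1 and SCC-1. The groups overlapped through control replicate 2, and the log2 fold change of -0.79 (SE 0.25) had an edgeR adjusted p of 0.0655, against 0.0164 with DESeq2, 0.0167 without control replicate 2 and 0.324 in replicates 2 and 3 alone. In batch 1 the *grh-1* ranges overlapped in all comparisons with the control, and the only call was of DPY-26 cleavage without its replicate 2, at 0.44 (edgeR adjusted p = 0.0462) instead of 0.27 (adjusted p = 0.322), in a range of 0.0462 to 0.594 over all alternatives.

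The Blimp1 factor gene *blmp-1*, known to keep the chromatin of cycling genes accessible and to set their amplitude, had the smallest ratio of the highest to the lowest sample, though replicates of *nhr-25* spread less. It had 147, 104 and 132 CPM in the TEV control of batch 2 and 93.6, 95.6 and 81.4 CPM with cleavage of COH-1 and SCC-1. These did not overlap, with a log2 fold change of -0.48 (SE 0.14, edgeR adjusted p = 0.058; DESeq2 adjusted p = 0.0257; edgeR adjusted p = 0.0113 without control replicate 2; 0.215 in replicates 2 and 3 alone). No other comparison with a control separated the *blmp-1* groups.

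COH-1 cleavage was called for no member, with edgeR log2 fold changes between -0.10 (*bed-3*) and 0.31 (*nhr-23*). The smallest adjusted p was 0.922, for *myrf-1*. How small a difference could be seen depended on the spread, with an SE of 0.37 for *nhr-23* and 0.10 for *nhr-85*.

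Set directly against each other, DPY-26 and KLE-2 cleavage differed in *nhr-25*, the 1 call of 7 where 6.88% of all genes were called (5.15% higher, 1.73% lower), by a log2 fold change of 1.12 (SE 0.22, edgeR adjusted p = 0.0252). The ranges of 4 of the 7 genes did not overlap in that comparison (21.9% of all genes), with *nhr-23* and *myrf-1* lower and *bed-3* and *nhr-25* higher with DPY-26 cleavage. When 1 sample was left out the *nhr-25* call held in 2 of 8 fits, with adjusted p of 0.0047 to 0.0871. Leaving out KLE-2 replicate 1 or 2, or any DPY-26 sample, ended it.

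SCC-1 and KLE-2 cleavage differed in no member by edgeR (0% of all genes), where 4 members and 5.79% of all genes had an unadjusted p under 0.05, and DESeq2 called no member and 0.892% of all genes. The ranges of *nhr-23* did not overlap (3.06% of all genes), with a log2 fold change of 0.40 (SE 0.15, edgeR adjusted p = 0.818).

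The double cleavage differed from that of COH-1 in 3 of 7 members (10.2% of all genes, 4.41% higher and 5.80% lower), all lower. The log2 fold change was -1.94 (SE 0.29, edgeR adjusted p = 0.0156) for *bed-3*, -0.83 (SE 0.18, adjusted p = 0.0317) for *grh-1* and -0.46 (SE 0.10, adjusted p = 0.0349) for *blmp-1*. Together with *nhr-25* and *nhr-85*, 5 members had ranges that did not overlap (33.1% of all genes). In replicates 2 and 3 alone the adjusted p were 0.0533, 0.0997 and 0.0919. When 1 sample was left out, *bed-3* remained called in 4 of 6 fits and the other two in 2 of 6. No member was called without COH-1 replicate 3 or without double cleavage replicate 1.

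Replicates of a group deviated together in several of these genes. After group means were removed, 10 of the 21 pairs of members were correlated over the 40 samples (adjusted p under 0.05 in an exact permutation of replicate numbers within batches, with 5184 arrangements and a smallest p of 0.000193). Of these, 9 were positive with the same sign within each of the 4 batches. The share of other gene pairs that pass this test was not computed, so these counts are not read as particular to the members. The closest pair was *nhr-23* and *myrf-1*, with Pearson r = 0.92 and Spearman rho = 0.89 (permutation p = 0.000386 for each, adjusted 0.00162 and 0.00203). Their r was 0.89 without the 2 samples farthest from the median of *nhr-23* and 0.92 to 0.97 within batches.

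The *blmp-1* deviations went with those of *myrf-1* (r = 0.79, rho = 0.77, permutation p = 0.000193 for each, adjusted 0.00162 and 0.00203), of *grh-1* (r = 0.77, rho = 0.76, permutation p = 0.000193 and 0.000579, adjusted 0.00162 and 0.00243) and of *nhr-23* (r = 0.68, rho = 0.61, permutation p = 0.00135 for each, adjusted 0.00473). Without the 2 farthest samples these r were 0.72, 0.76 and 0.56. Within batches they were 0.63 to 0.91 for *myrf-1*, 0.31 to 0.91 for *grh-1* and 0.51 to 0.96 for *nhr-23*.

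The deviations of *bed-3* went with those of *grh-1* (r = 0.64, rho = 0.72, permutation p = 0.000386 for each, adjusted 0.00162 and 0.00203) and of *nhr-25* (r = 0.64, rho = 0.62, permutation p = 0.0108 and 0.00424, adjusted 0.0227 and 0.0111). Without the 2 farthest samples these r were 0.66 and 0.60, and within batches 0.40 to 0.82 and 0.58 to 0.87. The deviations of *bed-3* bore no such relation to *nhr-23* (r = -0.12, rho = -0.11, permutation p = 0.284 and 0.391, adjusted 0.351 and 0.456) or *myrf-1* (r = 0.02, rho = 0.09, permutation p = 0.855 and 0.483, adjusted 0.897 and 0.534).

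The remaining positive pairs were *grh-1* with *myrf-1* (r = 0.59, rho = 0.55, permutation p = 0.000386 for each, adjusted 0.00162 and 0.00203), *nhr-23* with *grh-1* (r = 0.46, rho = 0.42, permutation p = 0.00251 and 0.00347, adjusted 0.00752 and 0.0104) and *blmp-1* with *bed-3* (r = 0.46, rho = 0.48, permutation p = 0.00714 and 0.0081, adjusted 0.0167 and 0.0189). Without the 2 farthest samples these r were 0.53, 0.34 and 0.53. The only negative pair was *nhr-85* with *bed-3*, at r = -0.62 and rho = -0.43 (permutation p = 0.00559 and 0.0158, adjusted 0.0147 and 0.0332), with r = -0.51 without the 2 farthest samples. It was -0.73, -0.48 and -0.72 within batches 1, 3 and 4 and 0.17 within batch 2. The genes share library and normalization in each sample.

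**Figure D4:**
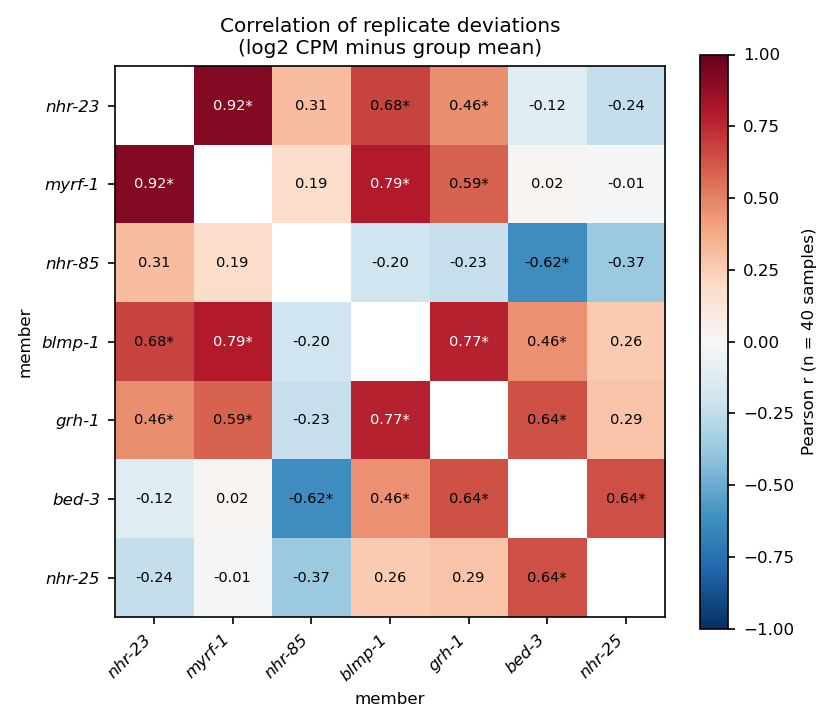
Pearson r between the members (both axes) of their deviations from the group mean in log2 CPM over 40 samples, with colour from -1 (blue) to 1 (red) and an asterisk for a permutation adjusted p under 0.05. A red block joins nhr-23, myrf-1, blmp-1 and grh-1, bed-3 is red with grh-1, blmp-1 and nhr-25, and the pair nhr-85 and bed-3 is blue at -0.62.

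By the same deviations, as a description over 40 samples and 9682 other genes, the profile most like *nhr-23* was that of *sym-1* (r = 0.95), followed by *cdh-7* (0.95) and *let-653* (0.95). Nearest to *myrf-1* were *mlt-11* (0.95), *zmp-2* (0.94) and *ebax-1* (0.94), and nearest to *blmp-1* were *ptr-4* (0.89), *ZC84.6* and *cdh-12* (0.88 each). The *grh-1* profile was nearest to *C11H1.5* (0.96), *ZK1025.4* (0.96) and *C23H3.9* (0.95), and that of *bed-3* to *mam-2* (0.95), *F01D5.10* (0.95) and *Y34B4A.10* (0.94). Likeness was lower for *nhr-25*, with *sams-4* at 0.86 and *tag-250* and *arrd-10* at 0.82, and for *nhr-85*, with *F46F2.3* and *col-176* at 0.77 and *col-103* at 0.76.

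Genes known to act downstream in the moult were counted in 4 lists. With SCC-1 cleavage all 6 furrow collagens, which form the annular furrows of the cuticle, rose (median log2 fold change 1.33, beside 0.02 over all genes), among them *dpy-9* (1.43) and *dpy-10* (1.42). Of 8 other cuticle collagens 5 fell and none rose (median -1.33), among them *dpy-4* (-1.82), *dpy-5* (-1.77) and *dpy-13* (-1.84). Of 27 moulting effectors 7 rose and 10 fell, where 14.4% of all genes rose and 14.6% fell, with *fbn-1*, a fibrillin-like matrix protein, at 2.89 and *nas-36*, a protease of the moult, at -3.05. Of 11 rhythm regulators and partners 4 rose, including *pan-1* (1.05), a partner of MYRF-1, and 2 fell, including *kin-20* (-0.95), a casein kinase. In the same samples epidermis markers summed to 569 to 939.8 CPM with SCC-1 cleavage and 335 to 604 CPM in the control, 2 of 7 rose, and 3 of 7 neuron markers rose and 1 fell. Of the earlier-stage markers 2 of 4 rose and 1 fell, with sums of 165 to 224 CPM against 169 to 189.9 CPM. Later-stage markers fell in 1 of 4 tested, intestine markers fell in 1 of 6 and body wall muscle markers rose in 1 of 5. The part of these markers in these results was not tested.

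TIR1 with auxin lowered 5 of 6 furrow collagens (median -1.30), 7 of 8 other cuticle collagens (median -3.92), 18 of 27 moulting effectors (median -1.10) and 4 of 11 rhythm regulators, where 9.76% of all genes fell and 4.68% rose, and raised only *fbn-1* (1.31). In replicates 2 and 3 alone the counts that fell were 6, 7, 22 and 4, and 1 effector rose. The other cuticle collagens summed to 257 to 1433 CPM with TIR1 and 8049 to 15741 CPM in the TEV strain. Among the regulators that fell were *nhr-41* (-2.09), a nuclear receptor, and *lin-42* (-1.56), a Period-like protein. Epidermis markers summed to 381 to 609 CPM with TIR1 and 636 to 824 CPM with TEV alone, and 2 of 7 fell. Later-stage markers summed to 1.98 to 3.36 CPM and 2.30 to 3.79 CPM in the same order, with 1 of 3 tested called lower. Earlier-stage markers summed to 188 to 242 CPM and 149 to 240 CPM, with 1 of 4 called lower. The part of all these markers was not tested.

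Cleavage of COH-1 and SCC-1 together lowered 7 of 8 other cuticle collagens (median -2.15) and 9 of 27 moulting effectors, with *mlt-10* at -3.39, and 2 of 11 regulators, *nhr-41* (-1.12) and *kin-20* (-0.72), where 11% of all genes fell. It raised *nekl-3* (0.47), where 10.3% rose. None of the 6 furrow collagens was called (median -0.31), none had an unadjusted p under 0.05 (36.9% of all genes) and DESeq2 called none (26.7%). In replicates 2 and 3 alone no gene of the 4 lists was called. Germline markers fell in 3 of 10 (147 to 176 CPM summed, against 238 to 361 CPM), and neuron markers rose in 2 of 7. Of the 7 epidermis markers 1 fell, *che-14*, which is also among the 27 effectors. Body wall muscle markers summed to 8565 to 8885 CPM against 6945 to 7595 CPM with 1 of 5 called higher. Earlier-stage markers summed to 229 to 283 CPM against 181 to 222 CPM, with 1 of 4 called higher and 1 lower. The part of these markers was not tested. DPY-26 cleavage raised 4 of 27 effectors, *nekl-3* (0.99), *mlt-3* (0.44), *mlt-9* (0.82) and *nas-37* (1.24), and 2 of 11 regulators, *myrf-2* (0.58), the paralogue of *myrf-1*, and *daf-12* (0.41), where 15.5% of all genes rose, so that neither count stood out from it. The share called higher was 67.7% on X and 2.90% to 9.32% on autosomes. The chromosomes of these listed genes were not examined, so the counts are not set against the share of X. DPY-26 cleavage lowered 2 of 8 other collagens, *dpy-4* (-0.47) and *dpy-5* (-0.36), where 11.9% fell. The sum of the earlier-stage markers was higher in these samples, with 2 of 4 called higher and 1 lower, as given for *nhr-25*. DPY-26 cleavage with SDC-3 degradation raised 2 of 27 effectors and lowered 1, and raised 2 of 11 regulators and lowered 2, where 11.2% of all genes rose and 3.46% fell. In that comparison 49.6% of X genes were called higher, and the chromosomes of the listed genes were likewise not examined. No collagen of either list was called there, and the sum of the earlier-stage markers was higher in these samples too, as given for *nhr-25*. In replicates 2 and 3 alone the counts of effectors and regulators were 3, 1, 2 and 0.

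By edgeR no gene of these 4 lists was called with KLE-2 or COH-1 cleavage. With KLE-2 cleavage the median of the furrow collagens was 1.30 with all 6 above 0, each had an unadjusted p under 0.05, against 15.2% of all genes, and DESeq2 called all 6 higher, against 3.64%. Of the 27 effectors 11 had an unadjusted p under 0.05 with KLE-2 cleavage and DESeq2 called 5 higher and 4 lower, where it called 3.64% of all genes higher and 3.36% lower, and of the 11 regulators 5 did and DESeq2 called 2 higher and 1 lower. Of the 8 other collagens none did. With COH-1 cleavage 1 effector had an unadjusted p under 0.05, against 6.27% of all genes, and DESeq2 called 1, lower (0.439% of all genes higher, 0.424% lower). With SDC-3 degradation *lin-29* (-1.10), a heterochronic factor, was the only gene of the 4 lists called by edgeR. The median was -3.16 for the other cuticle collagens, -1.72 for the furrow collagens and -1.09 for the effectors. All 6 furrow and all 8 other collagens had an unadjusted p under 0.05 there, against 22.0% of all genes. DESeq2 called 7 of 8 other and 6 of 6 furrow collagens and 4 of 11 regulators lower, and 15 of 27 effectors lower and 1 higher, where it called 6.99% of all genes lower and 4.67% higher.

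Transcript estimates differed between groups within *blmp-1*. Salmon assigned a mean of 76.6% (SD 3.4, n = 4) of its TPM to the longer transcript F25D7.3a.1 in the TEV control of batch 1 and 61.1% (SD 3.7, n = 4) with SCC-1 cleavage. The ranges, 72.7% to 81.0% and 57.3% to 65.4%, did not overlap. On auxin the share was 68.8% (SD 5.1, n = 3) in the TEV strain and 39.2% (SD 3.6, n = 3) with TIR1, and in the SDC-3 degron strain 60.5% (SD 7.5, n = 3) without and 45.4% (SD 2.7, n = 3) with auxin, again without overlap. The other transcript, F25D7.3b.1, took the rest. With DPY-26 cleavage and SDC-3 degradation F25D7.3a.1 had 41.1% (SD 3.7, n = 3), which overlapped the TIR1 strain. With the double cleavage it had 52.3% (SD 11.2, n = 3), in a range of 40.1% to 62.2%, below the 63.8% to 68.6% of its control.

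Within *grh-1*, transcript Y48G8AR.1b.1 had 31.6% (SD 8.7, n = 4) in the TEV control of batch 1 and 12.9% (SD 2.3, n = 4) with SCC-1 cleavage, with ranges of 23.5% to 43.4% and 9.67% to 14.8%, and Y48G8AR.1a.1 had 56.6% to 71.2% and 73.2% to 78.5%, again without overlap. With KLE-2 cleavage Y48G8AR.1b.1, at 12.8% to 23.03%, was also below the control in every sample, while Y48G8AR.1a.1, at 54.7% to 76.98%, overlapped it. For *nhr-23* the assignment differed by batch and, in batches 2 and 3, also between replicates of a group. In batch 1 transcript C01H6.5e.5 held group means of 11.3% to 42.6% and C01H6.5c.1 at most 6.8%. In batches 2 to 4 the means of C01H6.5e.5 were at most 0.6% and those of C01H6.5c.1 38.9% to 62.2%. Samples of the TEV control of batch 2 ranged from 14.4% to 61.0% for C01H6.5c.1 and from 0% to 43.9% for a further transcript, C01H6.5e.1. In the TEV strain on auxin the ranges were 10.7% to 65.0% and 0% to 40.3%. Within batch 1 C01H6.5e.5 had 11.3% (SD 7.9, n = 4) in the TEV control and 42.6% (SD 4.6, n = 4) with SCC-1 cleavage, without overlap, and DPY-26 cleavage, at 31.2% (SD 10.6, n = 4), did not overlap the control either. These shares were not tested. They rest on how reads common to several transcripts were split, and 6 libraries with their own ratio of TPM to CPM lie in batches 2 and 3. The genes *myrf-1*, *bed-3* and *nhr-85* each had a single transcript with at least 96.95% of TPM in every group.

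**Figure D5:**
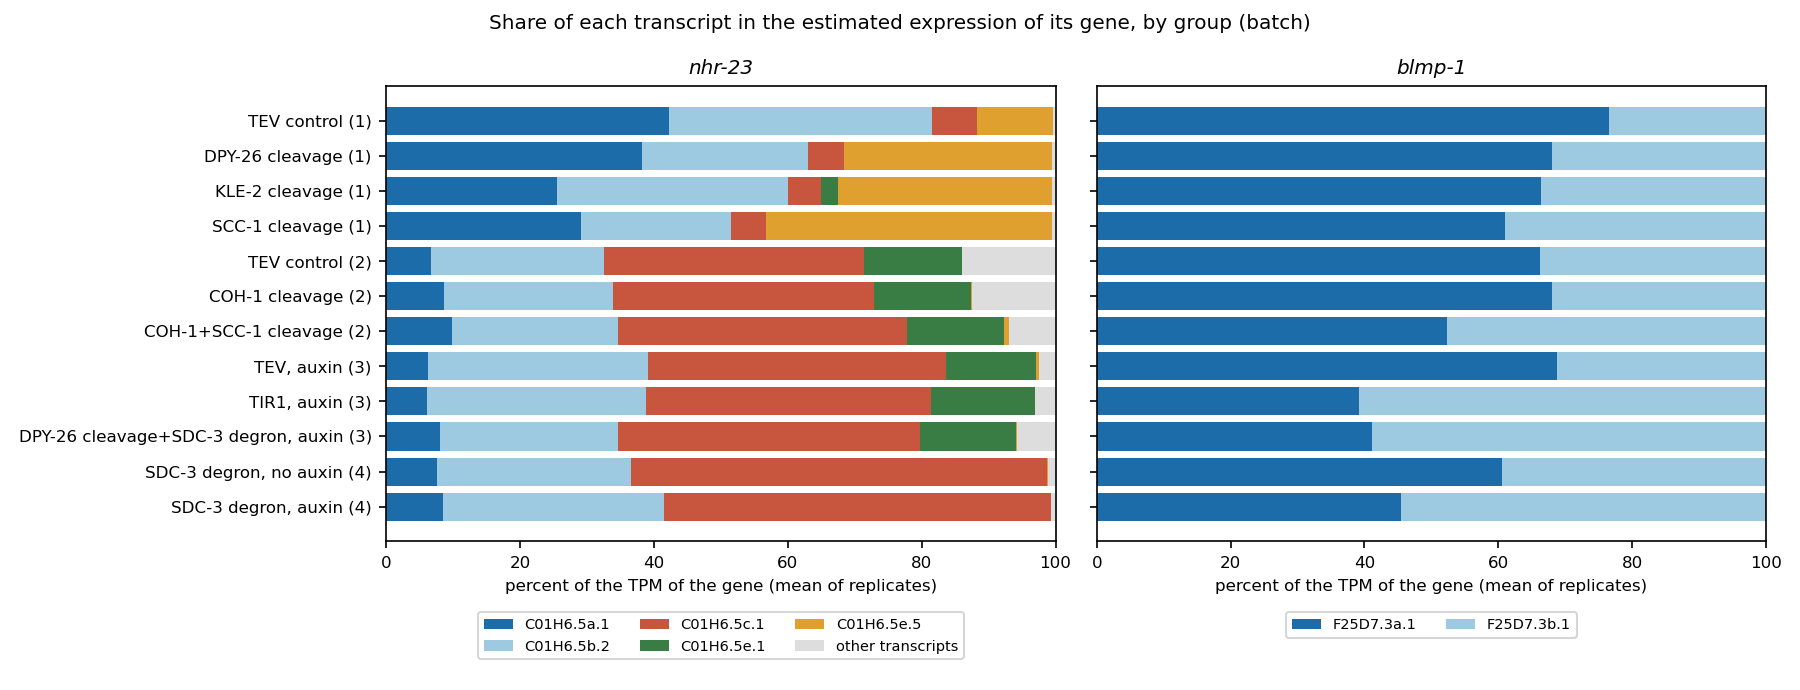
Percent of the TPM of nhr-23 (left) and blmp-1 (right) assigned to each transcript, as the mean over the replicates of a group (horizontal bars), with the batch in brackets. The longer blmp-1 transcript F25D7.3a.1 has 76.6% in the TEV control of batch 1 and 61.1% with SCC-1 cleavage, and 68.8% without and 39.2% with TIR1 on auxin, and the nhr-23 transcript in gold is seen almost only in batch 1.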

How the data were processed

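RNA of 40 samples in 12 groups had been sequenced with a stranded mRNA kit. For each lane the deposited tables held an estimated count per transcript, computed by the authors with Salmon (version 1.5.2 in the submitters' processing notes). The same deposited tables held TPM, in which estimates are divided by effective transcript length and scaled to a fixed total per lane. The transcriptome release is not given in the sources used here. From 82 files, lanes were summed (TIR1 with auxin, replicate 1, had 4), 42938 transcripts were joined to 19934 genes of Ensembl release 115 for WBcel235 (30905 by name, 11992 by sequence name, 41 by neither, with 0.0066% to 0.0128% of reads), and sums were rounded. TPM was used for levels and transcript shares.

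Genes with at least 10 reads in 0.5 of the compared samples were tested, each group against its control, with edgeR 4.0.16 (TMM, quasi-likelihood test, Benjamini-Hochberg over all genes tested, threshold 0.05). CPM used TMM factors of all 40 samples, and log2 CPM a prior count of 1. DESeq2 1.42.0, size factors of relative log expression, no filter, a replicate block, all groups of a batch in 1 fit, leaving out each sample and, after seeing the data, replicates 2 and 3 alone were alternatives. R 4.3.3, Python 3.11.15, numpy 2.4.6, pandas 2.3.3, scipy 1.17.1 and matplotlib 3.10.9 were used, and the fits were tested on simulated data. No pair of replicates was alike within sampling noise (48 pairs, lowest chi-square 24.1 per degree of freedom).

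Groups, batches and replicate numbers came from the labels. Same-numbered samples deviated together in every pair (r above 0.1 across genes) only for COH-1 cleavage against its control (0.44, 0.57 and 0.49) and for the double cleavage against COH-1 cleavage (0.41, 0.24 and 0.18), where the block changed no call of a member (all genes called went from 1 to 9 and from 1434 to 2022). Total counts were 36617778 to 66248369 in batch 1, 23700267 to 49867075 in batch 2, 23592146 to 88427247 in batch 3 and 20460404 to 37639146 in batch 4, and error is given as the spread over replicates, which includes counting error.

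The genes named were the 7 members, up to 4 called genes of a list in a comparison with the smallest p in each direction, and the 3 genes nearest to each member. The members and lists were chosen with earlier results of these data known. Of the marker lists, *elt-5* was not found by its symbol, and *che-14* was both an epidermis marker and a moulting effector. No sequences were analysed here.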

Additional observations from a re-analysis of the deposited data

Results flagged for a closer look

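In 2 of the 28 groups of 4 samples examined, 1 for each of the 7 genes and the 4 groups of batch 1, a sample stood apart from the other 3, where chance gives about 1 in 20. The gene *nhr-25* in DPY-26 cleavage replicate 3 was at 65.7 CPM, below the other 3, and *myrf-1* in KLE-2 cleavage replicate 2 was at 247 CPM, below the other 3. Both remained above all TEV control samples of the batch.

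Effects that differed between cleavages by a direct edgeR test were those of DPY-26 and KLE-2 cleavage on *nhr-25*, by 1.12 on the log2 scale, and those of the double cleavage and COH-1 cleavage on *bed-3* (-1.94), *grh-1* (-0.83) and *blmp-1* (-0.46). Each pair shares its control, and the test compared the cleavages directly.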

How the results depend on the processing

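Every member called in the 8 comparisons with a control kept its direction and its call in each fit without 1 sample and under each alternative, except *bed-3* with cleavage of COH-1 and SCC-1 in replicates 2 and 3 alone, which was chosen after seeing the data. The cause was not tested for the changes that follow. With DESeq2 the number of members called was 2 instead of 0 with KLE-2 cleavage, 3 instead of 1 with COH-1 and SCC-1 cleavage, 2 instead of 1 with DPY-26 cleavage and SDC-3 degradation, 2 instead of 0 with SDC-3 degradation, 4 instead of 3 for TIR1 with auxin, and 3 instead of 1 for DPY-26 against KLE-2 cleavage. With all groups of the batch in 1 fit it was 2 with KLE-2 cleavage, 3 with COH-1 and SCC-1 cleavage, 4 for TIR1 with auxin, 3 for DPY-26 against KLE-2 cleavage, and 1 instead of 3 for the double against COH-1 cleavage. In replicates 2 and 3 alone it was 0 for the double cleavage against either group and 2 for DPY-26 cleavage with SDC-3 degradation.

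Without 1 sample in turn, members called ranged from 1 to 2 with DPY-26 cleavage, 0 to 1 with KLE-2 cleavage, 1 to 3 with COH-1 and SCC-1 cleavage, 3 to 4 for TIR1 with auxin, 1 to 2 with DPY-26 cleavage and SDC-3 degradation, 0 to 3 with SDC-3 degradation, 0 to 1 for DPY-26 against KLE-2 cleavage and 0 to 3 for the double against COH-1 cleavage. The libraries that moved a count were DPY-26 replicate 2, KLE-2 replicate 2, TEV replicate 2 of batch 2, TIR1 replicates 1 and 3, SDC-3 auxin replicate 2 and SDC-3 ethanol replicate 3, beside those named for the direct comparisons. The correlation of *nhr-85* with *bed-3* was 0.166 within batch 2.

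The replicate block gave 5 members instead of 3 for TIR1 with auxin (*nhr-85* and *nhr-23* added), 3 instead of 1 for DPY-26 cleavage with SDC-3 degradation (*blmp-1* and *myrf-1* lower), 1 instead of 0 for SDC-3 degradation (*grh-1*) and 2 instead of 1 for DPY-26 against KLE-2 cleavage (*nhr-23*). It changed no other count of members. In those 4 comparisons 5 of 6, 4 of 6, 4 of 6 and 4 of 8 samples correlated best with their own number.

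Over all genes, calls moved by more than 1.5 times for KLE-2 cleavage (168; DESeq2 1003, batch fit 629, block 30), COH-1 cleavage (1; 120, 21, 9), SDC-3 degradation (173; DESeq2 1589, block 977), DPY-26 against KLE-2 cleavage (984; 2346, 3139, 540), SCC-1 against KLE-2 cleavage (0; DESeq2 128, batch fit 3), DPY-26 cleavage (3938; batch fit 2188), SCC-1 cleavage (4176; batch fit 2595), DPY-26 cleavage with SDC-3 degradation (2053; block 3953) and the double cleavage in replicates 2 and 3 alone (0 instead of 2995 against TEV, 599 instead of 1434 against COH-1). Without 1 sample in turn they ranged from 2333 (TEV replicate 4) to 4396 for DPY-26 cleavage, 0 (TEV replicates 1, 2 and 3 and KLE-2 replicate 1) to 332 for KLE-2 cleavage, 2915 to 4248 for SCC-1 cleavage, 344 lower with 478 higher (double replicate 1) to 3228 in all for the double cleavage, 1215 (TEV replicate 2) to 2108 for TIR1, 842 (its replicate 2) to 2015 for DPY-26 cleavage with SDC-3 degradation, 0 (auxin replicate 1 and ethanol replicates 1 and 2) to 1233 for SDC-3 degradation, 10 (KLE-2 replicate 1) to 1910 for DPY-26 against KLE-2 cleavage and 31 (double replicate 1) to 2437 for the double against COH-1 cleavage, and were 0 throughout for COH-1 cleavage and for SCC-1 against KLE-2 cleavage.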
